A study of Mus musculus with 2 samples.

Results

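The azurophil granule protease genes described here are 9 named genes among the 32285 genes counted in each library. They were taken by name: Mpo, Elane, Prtn3, Ctsg, Prss57, Ms4a3, Ctsc, Serpinb1a and Srgn. All 9 were detected in both libraries and all 9 had at least 100 UMIs (unique molecular identifiers, counted as molecules) over both libraries in each stage compared. Azurophil granules are the first granules that a developing neutrophil packs. Their serine proteases are made in a short window of progenitor life, cut into active form by cathepsin C, held on the serglycin core and checked in the cytosol by serpins. Later precursors stop making them and turn to the proteins of specific granules.

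Mouse bone marrow cells labelled CD45.2+Kit+, taken 10 weeks after transplantation, were profiled with 10x Genomics 3-prime chemistry and antibody tags. The 2 libraries were 1 control and 1 labelled Utx-deleted (UTX is the histone demethylase encoded by Kdm6a). The labels give no strain, allele, driver of the deletion, animal number or host, and these are not given in the sources used here. Because each condition is 1 library, no test between conditions was made, and every difference is one between these 2 libraries. All intervals are exact 95% intervals (Poisson for levels, binomial for shares and ratios) and cover counting error only.

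Filtering kept 7011 control cells and 7206 from the library labelled Utx-deleted, at medians of 12367 and 11816 UMIs. The libraries shared 17 cell barcodes. Kdm6a was not depleted (110 and 103 CPM, counts per 1000000 UMIs). Counting at the 3-prime end does not show an internal deletion, so that library is named only by its label. Although the labels give a Kit+ population, maturing neutrophils made up 75.3% and 77.9% of kept cells, and their median of the Kit (CD117) tag was 19 and 12 UMIs against 200 and 210 in neutrophil progenitors. Of 19 clusters of maturing neutrophils, 7 were at least 90% control and 5 at least 90% from the other library, so the libraries stood apart among these cells. Each library carried 2 hashtags, whose meaning the labels do not state. Values per hashtag are given to describe spread inside a library, not as replicates.

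Cells were placed in stages by UMIs of other markers, with none of the 9 genes used. Early progenitors (Hlf, Mecom, Meis1, Angpt1 and others) numbered 635 among control cells and 249 in the library labelled Utx-deleted. Neutrophil progenitors (Gfi1, Cebpe, Fcnb and others) numbered 413 and 529, monocyte progenitors (F13a1, Irf8, Csf1r and others) 262 and 576, and maturing neutrophils (Ltf, Camp, Ngp and others) 5280 and 5615. Summed UMIs of a stage ran from 6963620 to 72132586. Within 20% of a gate's edge lay 2.51% and 2.1% of kept cells.

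In neutrophil progenitors, the stage in which 7 of the 9 genes were at their highest among the 4 stages, the granule genes were almost as abundant in the library labelled Utx-deleted as in the control. Mpo, the myeloperoxidase that makes hypochlorous acid, stood at 4974 CPM in the control library and 5088 CPM in the other (log2 ratio 0.033, interval 0.017 to 0.048). Elane, neutrophil elastase, stood at 10968 and 11376 CPM (log2 ratio 0.053, interval 0.042 to 0.063). Prtn3, proteinase 3, stood at 7918 and 8329 CPM (0.073, interval 0.061 to 0.085). Ctsg, cathepsin G, stood at 6682 and 7361 CPM (0.14, interval 0.13 to 0.15). For Elane the hashtags of a library differed by more than that (0.1 and -0.17 on the log2 scale). For Ctsg they differed by less (0.071 and -0.029), and its level was higher in both hashtags (0.18 and 0.084). A log2 ratio here and below is the library labelled Utx-deleted over the control, with 1 UMI added to each sum.

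The remaining genes of this stage were also close, apart from the inhibitor. Prss57, a granule serine protease with arginine specificity, stood at 273 and 271 CPM, and Ms4a3, a membrane protein of granulocyte and monocyte progenitors, at 1584 and 1532 CPM. Srgn, the serglycin core protein that holds granule proteases, stood at 3148 and 3251 CPM. Ctsc, the dipeptidyl peptidase that activates the granule proteases, stood at 38.5 and 33.2 CPM (log2 ratio -0.22, interval -0.4 to -0.03). The Ctsc ratio was -0.0033 and -0.45 in the hashtags and turned to 0.12 with clusters as stages. With antibody-tag gates Prss57 gave -0.43. Serpinb1a, the cytosolic inhibitor of elastase, proteinase 3 and cathepsin G, stood at 662 and 520 CPM (log2 ratio -0.35, interval -0.39 to -0.3) and was lower in both hashtags (-0.3 and -0.42). Of the 9 genes, 0 were past 2-fold in neutrophil progenitors, where 2.06% of all 9958 genes tested were. The members' median log2 ratio was 0.033, against -0.039 over all genes tested.

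Together, Mpo, Elane, Prtn3 and Ctsg took a median of 3.08% of all UMIs of a control neutrophil progenitor and 3.24% of one in the library labelled Utx-deleted. The central 80% of cells ran from 1.73 to 4.86% and from 1.96 to 4.91%, so the libraries overlapped over most of their range. The highest cells reached 7.83% and 7.44%.

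**Figure D1:**
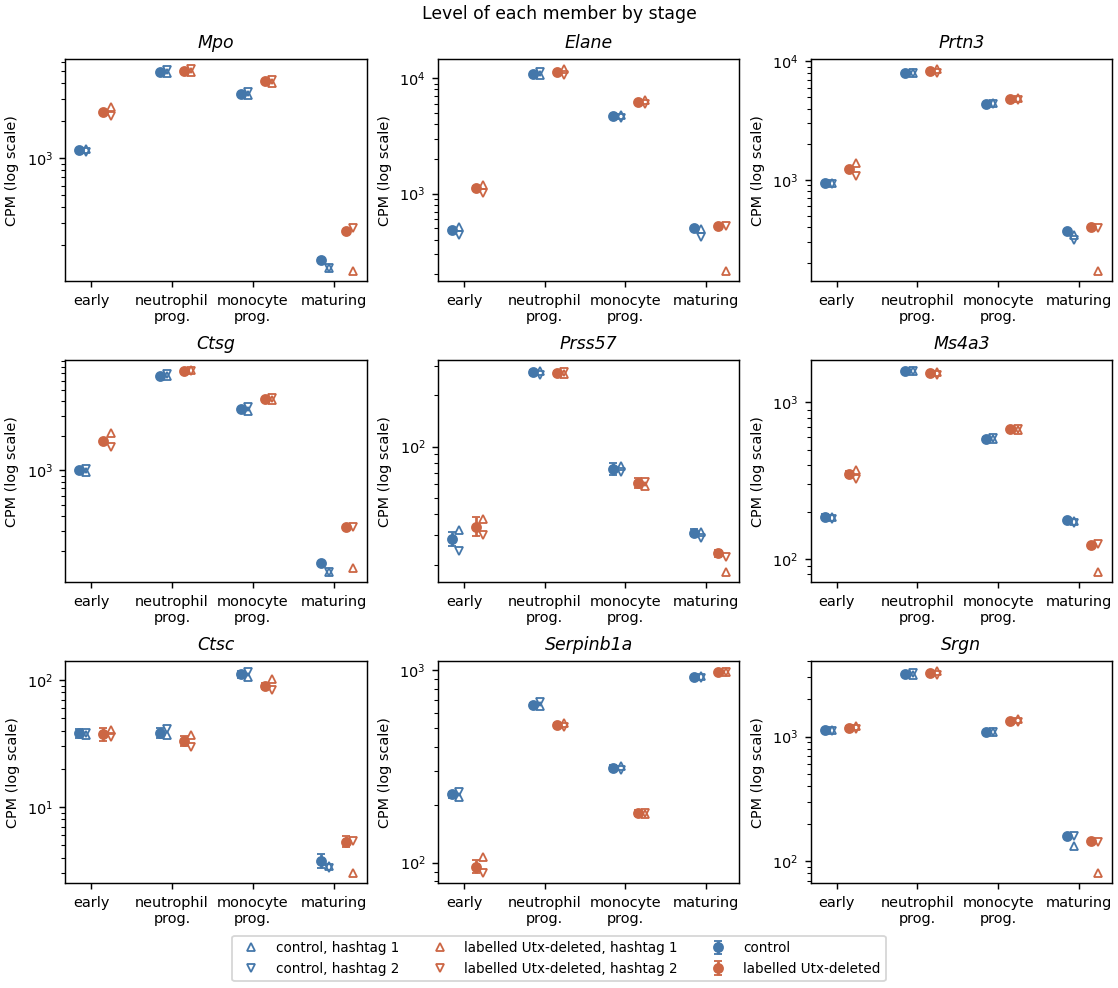
Level of each gene (CPM of summed UMIs, log scale) in 4 stages of the control library (blue) and the library labelled Utx-deleted (orange); filled points are all cells with 95% Poisson intervals, and open triangles are the cells of each hashtag. In neutrophil progenitors the libraries lie together for 7 genes, Elane at 10968 and 11376 CPM, whereas in early progenitors Mpo, Elane, Ctsg and Ms4a3 lie higher and Serpinb1a lower in the library labelled Utx-deleted.

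Each gene's rise and fall was read against its own level in neutrophil progenitors. In control early progenitors Mpo had reached 23.5% of that level, Ctsg 15%, Prtn3 11.9%, Ms4a3 11.7%, Prss57 10.5% and Elane 4.45%. Elane therefore stood lowest against its own neutrophil progenitor level, and Mpo highest among these 6. Srgn (35.7%) and Serpinb1a (34.1%) were further on, and Ctsc was already at its neutrophil progenitor level (99.1%). In the library labelled Utx-deleted the shares in early progenitors were 46.1% for Mpo, 24.4% for Ctsg, 22.7% for Ms4a3, 14.8% for Prtn3, 12.4% for Prss57 and 9.92% for Elane. Mpo again ranked first and Elane last of the 6.

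In monocyte progenitors the proteases were kept at a sizeable part of their neutrophil progenitor level. The control shares were 66.3% for Mpo, 55.5% for Prtn3, 51.2% for Ctsg, 42.6% for Elane, 37.0% for Ms4a3 and 27.1% for Prss57. Ctsc went the other way and stood at 289% and 271% of its neutrophil progenitor level. In maturing neutrophils Mpo, Elane, Prtn3 and Ctsg had dropped to between 2.37% and 4.64% in the control library, while Prss57 (11.4%) and Ms4a3 (11.2%) had dropped less. Serpinb1a alone of the 9 was higher in maturing neutrophils than in neutrophil progenitors, at 139% in the control library and 189% in the other.

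Other cells of the sort held some members as well. Ctsg stood at 1894 and 2618 CPM in 74 and 50 basophil or mast cells, which is 28.3% and 35.6% of its neutrophil progenitor level, and Mpo at 1016 and 1272 CPM. Srgn was nearly as high there (2777 and 2773 CPM) as in neutrophil progenitors. Ctsc was as high in the 26 and 35 dendritic cells (118 and 141 CPM) as in monocyte progenitors (111 and 89.7 CPM). Lymphoid cells, which should lack the neutrophil proteases, gave the level that free RNA could reach. They were not the same mix in both libraries: per 10000 UMIs the median cell held 119 and 0.675 UMIs of B cell markers and 0 and 12 of T or NK cell markers. Among the 106 and 63 lymphoid cells with 1 hashtag, Mpo stood at 37.2 and 35.4 CPM, Elane at 30.2 and 35.4 CPM, Prtn3 at 42.1 and 24.2 CPM, Ctsg at 35.8 and 43.5 CPM, and Ms4a3 at 11.9 and 6.44 CPM. Prss57 had 5 UMIs in the control lymphoid cells (3.51 CPM) and 0 in the others, which allows up to 4.83 CPM.

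Over the 16 sums of 8 cell groups in 2 libraries, the levels of Mpo, Elane, Prtn3, Ctsg, Prss57 and Ms4a3 followed one pattern. Pearson's r of each with the mean log2(CPM + 1) of Mpo, Elane, Prtn3 and Ctsg (each left out of its own mean) was 0.929 to 0.976, against 0.672 for Serpinb1a, 0.646 for Srgn and 0.119 for Ctsc. The 5 other genes whose pattern was most like that mean were Dmkn (r = 0.947), Gstm1 (0.941), Plod3 (0.933), Chdh (0.927) and Gm11505 (0.921). Gstm1 is one of the markers that set the neutrophil progenitor stage, and Gm11505 overlaps Mpo on the opposite strand, so reads of the pair could be shared if the counting did not use strand. These r are descriptions, since the 16 sums share libraries and cell groups, and some sums rest on 1 cell. The top cell held 84.4 to 90.5% of the Elane, Prtn3 and Ctsg UMIs of control lymphoid cells and 84.5 to 91.0% of the Mpo, Elane, Prtn3 and Ctsg UMIs of dendritic cells in the library labelled Utx-deleted, and such a cell moves these genes together.

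Among single neutrophil progenitors, Elane and Prtn3 varied together and Mpo went its own way. Spearman's rho of CPM between Elane and Prtn3 was 0.82 over 413 control cells and 0.822 over 529 cells of the library labelled Utx-deleted. Elane and Srgn gave 0.774 and 0.753, Elane and Ms4a3 0.701 and 0.54, and Elane and Ctsg 0.661 and 0.541. Mpo with Elane gave 0.284 in the control library and -0.16 in the other, and Mpo with Prtn3 0.221 and -0.224. Ctsc was unrelated to Elane (-0.125 and -0.0822). Elane was lower in cells with more early marker UMIs (-0.704 and -0.638) and in deeper cells (-0.449 and -0.469 with the UMI total). The part of depth and position in development in these pairs was not tested. Mpo also went with depth in the control library (-0.445) and hardly in the other (-0.0461).

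Elane and Prtn3 are neighbours in the genome, and their upstream sequences are shown because the pair varied together most closely. Elane (ENSMUSG00000020125) lies at chr10:79886247-79888215 on the plus strand of GRCm38 (GENCODE M21), 3073 bases beyond the end of Prtn3 (ENSMUSG00000057729; chr10:79874476-79883174, plus strand), and Prss57 (ENSMUSG00000020323; chr10:79781474-79790961, minus strand) lies 83515 bases before Prtn3. Mpo (ENSMUSG00000009350; chr11:87793581-87804413, plus strand) and Ctsg (ENSMUSG00000040314; chr14:56099881-56102574, minus strand) are elsewhere. The stretches below are RefSeq sequences (GRCm38.p6) from before each RefSeq gene start, which differs from the GENCODE start for Elane, Prtn3 and Mpo, 5′ to 3′ on the gene's strand, and capitals mark AGGAAGT, a core bound by ETS factors such as PU.1, and CAACGG, a MYB-type core. GENCODE M21 puts the last 20 bases of the Elane stretch and the last 8 of the Prtn3 stretch inside an exon, and none of the other stretches.
Elane, chr10:79886162-79886266, plus strand: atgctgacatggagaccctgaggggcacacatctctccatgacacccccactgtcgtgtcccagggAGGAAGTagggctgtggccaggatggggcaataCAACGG
Prtn3, chr10:79879517-79879621, plus strand: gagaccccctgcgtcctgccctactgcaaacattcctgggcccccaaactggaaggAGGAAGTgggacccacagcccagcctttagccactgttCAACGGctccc
Ctsg, chr14:56102674-56102824, minus strand: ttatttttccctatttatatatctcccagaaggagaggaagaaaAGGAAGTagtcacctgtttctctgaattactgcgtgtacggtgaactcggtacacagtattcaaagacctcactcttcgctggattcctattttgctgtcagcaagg
Mpo, chr11:87793534-87793580, plus strand: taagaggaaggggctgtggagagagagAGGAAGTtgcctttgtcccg

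Counted from the RefSeq starts, the same pair of motifs stood before both Elane and Prtn3, in the same order. AGGAAGT began 84 bases before the start of Elane and 94 bases before that of Prtn3, and CAACGG began 51 and 56 bases before. In Ctsg and Mpo, AGGAAGT began 206 and 223 bases before the start, and CAACGG was not found. From the GENCODE starts the picture differs: AGGAAGT began 19 bases before Elane, 20 before Mpo and 206 before Ctsg, CAACGG began 14 bases inside Elane, and both motifs of Prtn3 lie inside the gene, 5097 and 5135 bases from its start. Promoters were available here for 7 of the 9 genes. Searched on both strands of the 250 bases before the start, AGGAAGT was found in 5 of these 7 (Mpo, Elane, Prtn3, Ctsg and, on the opposite strand, Ctsc) and in 7.8% of the 27025 windows of all genes. CAACGG was found in 2 of the 7 and in 4.15% of all windows. TTNNGNAA, a loose C/EBP-type pattern, was found upstream of Ms4a3 and of 1 of the 2 Srgn starts and in 36.9% of all windows. The letters of the first 2 motifs were chosen after the members' sequences were seen, no 2 matches overlapped in Elane or Prtn3, and a match is a description of letters, not of binding.

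Prtn3 is itself the neighbour of Elane, and the levels of other neighbours varied. Tspoap1, next to Mpo, stood at 36.4 and 45.3 CPM in neutrophil progenitors, above its 6.58 and 12.8 CPM in early progenitors and 7.64 and 6.54 CPM in maturing neutrophils. Palm, next to Prss57, stood at 76.7 and 81.2 CPM in neutrophil progenitors, and Rab38, next to Ctsc, at 61.7 and 51.4 CPM. Mcpt8, next to Ctsg, stood at 17.0 and 35.6 CPM in early and 18.4 and 10.6 CPM in neutrophil progenitors, and Ms4a2, next to Ms4a3, at 39.5 and 53.6 CPM and at 3.16 and 2.99 CPM; both are among the basophil or mast markers. Cfd, which follows Elane, stood at 0.463 and 0.356 CPM in neutrophil progenitors, and Lpo, the peroxidase gene next to Mpo, at 0 and 0.499 CPM. Plppr3, which overlaps the start of the annotated Prtn3 gene on the opposite strand, stood at 45.9 and 48.4 CPM, and Gzme, next to Ctsg, at 0 CPM in both. Serpinb1c, the near copy of Serpinb1a on chromosome 13, had 0 and 0.0713 CPM there, although reads shared between such copies cannot be placed with certainty.

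In early progenitors the libraries differed, with Mpo and Elane higher and the inhibitor Serpinb1a lower in the library labelled Utx-deleted. Control cells held 1171 CPM of Mpo (interval 1154 to 1188), and those of the library labelled Utx-deleted held 2345 CPM (2309 to 2381), a log2 ratio of 1.0 (interval 0.97 to 1.03). It was higher in both hashtags (1187 and 1129 CPM in the control library against 2602 and 2191 CPM), which did not overlap. Elane stood at 488 and 1129 CPM (log2 ratio 1.21, interval 1.17 to 1.26), with 511 and 437 CPM in the control hashtags against 1187 and 1020 CPM. Serpinb1a stood at 226 and 95.4 CPM (log2 ratio -1.24, interval -1.37 to -1.12), with 220 and 233 CPM in the control hashtags against 107 and 88.8 CPM. These 3 genes were the members past 2-fold here, 2 higher and 1 lower, where 4.1% of 10453 genes tested were past 2-fold, 1.21% higher and 2.89% lower. Mpo lay at the 2-fold threshold and fell under it without doublet removal (0.99), with doubled gate thresholds (0.95) and with hashtag 2 only (0.96). Equal weights of the marker groups left 1 member past 2-fold and clusters left 0.

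Of the other granule genes of early progenitors, Ms4a3, Ctsg and Prtn3 were higher by less. Ms4a3 stood at 186 and 349 CPM (log2 ratio 0.91, interval 0.83 to 0.98) and Ctsg at 1002 and 1797 CPM (0.84, interval 0.81 to 0.88), each higher in both hashtags. Prtn3 stood at 940 and 1232 CPM (0.39, interval 0.35 to 0.43). Prss57 stood at 28.6 and 33.7 CPM, from 457 and 235 UMIs (0.24, interval 0.0043 to 0.47). Srgn (1123 and 1178 CPM, 0.069) and Ctsc (38.1 and 37.5 CPM, -0.022) were nearly level. Of the 9 members 7 had a ratio above 0, but the share of all genes above 0 was not counted. The members' median was 0.39 against -0.014 over all genes tested. The signs of Prss57 (-0.48 to 1.01), Srgn (-0.082 to 0.23) and Ctsc (-0.26 to 0.57) turned under some of the alternatives run. Hashtags inside a library differed by a median of 0.2 and at most 0.4 on the log2 scale in this stage. Markers of basophils or mast cells, which hold Mpo and Ctsg themselves, were higher here too, at a sum of 62.1 and 95.6 CPM (68.4 and 52.4 in the control hashtags against 105 and 91.9). Of the 6, 4 had UMIs in each library, with Cma1 and Tpsb2 at 0 in the control and Prss34 and Tpsb2 at 0 in the other. The 4 dendritic markers summed to 6.45 and 12.6 CPM, with Cd209a at 0 in both libraries and Siglech at 0 in the library labelled Utx-deleted. The part of these cells in the ratios was not tested.

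**Figure D2:**
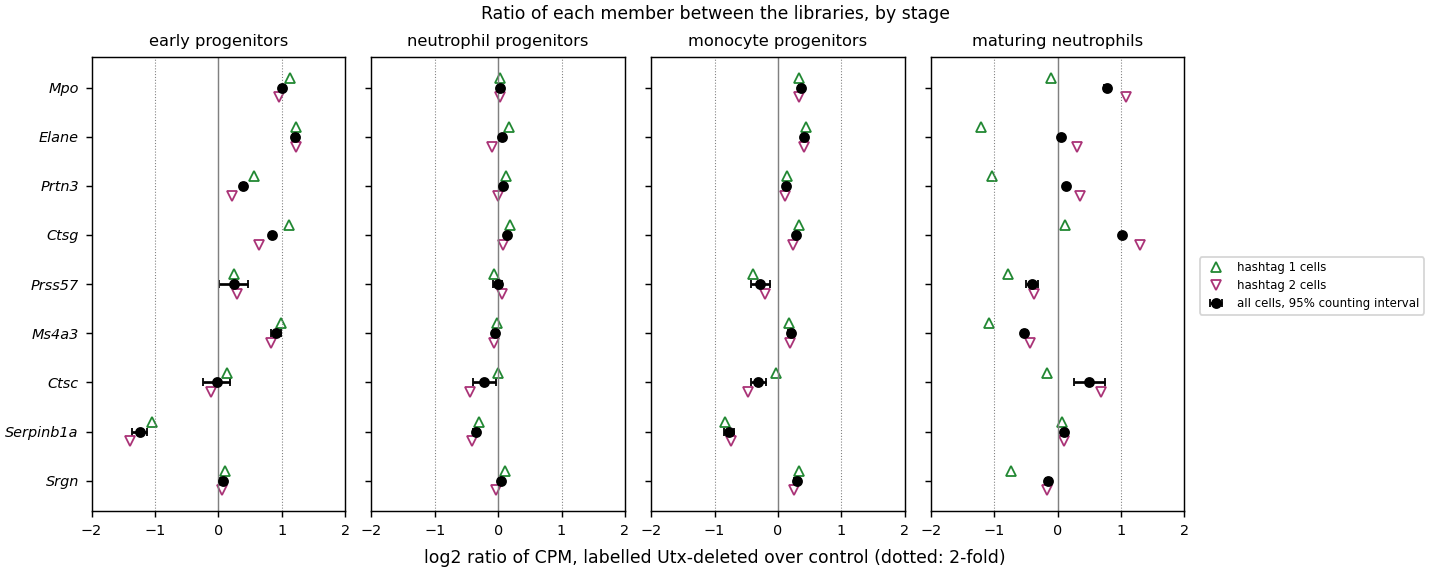
Log2 ratio of CPM, library labelled Utx-deleted over control, for each gene in each stage; black points are all cells with 95% counting intervals, triangles the ratio within each hashtag, and dotted lines mark 2-fold. In early progenitors Elane (1.21) and Mpo (1.0) lie right and Serpinb1a (-1.24) left with both hashtags, in neutrophil progenitors all but Serpinb1a (-0.35) and Ctsc (-0.22) lie near 0, and in maturing neutrophils the hashtags part (Elane -1.21 and 0.31).

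The early stage is a mixture of cells with little and with much Mpo. The median control cell had 267 CPM of Mpo and the median cell of the library labelled Utx-deleted 1735 CPM, while the upper 10% began at 3272 and 5062 CPM. At least 1 Mpo UMI was found in 78.6% of control cells (interval 75.2 to 81.7%) and 81.9% of the others (76.6 to 86.5%), intervals that overlap. At least 1 Elane UMI was found in 60.8% of control cells (interval 56.9 to 64.6%) and 74.7% of the others (68.8 to 80.0%). With each cell thinned to 2000 UMIs, which left out 1 and 0 cells, these shares were 22.1% and 44.2%, and for Mpo 47.8% and 62.2%. Lymphoid cells gave 9.43% and 8.2% for Elane and 12.3% and 9.84% for Mpo after thinning, from median depths of 10224 and 6502 UMIs against 24425 and 27106 UMIs in early progenitors. The early shares were above the lymphoid ones in both libraries. Unthinned lymphoid shares were 33.3% and 31.2% for Elane.

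Early progenitors were then split by their early marker UMIs per 10000 UMIs of the cell, a measure that no member enters. Where these markers were low (10 to 20, 142 and 82 cells), Mpo stood at 2665 and 4160 CPM (log2 ratio 0.64) and Elane at 1327 and 2366 CPM (0.83). At intermediate values (20 to 40, 184 and 68 cells), Mpo stood at 1205 and 2576 CPM (1.10) and Elane at 382 and 827 CPM (1.12), and Ms4a3 at 189 and 408 CPM (1.11). In the 309 and 99 cells with 40 or more, Mpo stood at 229 and 263 CPM (0.21), Elane at 44.8 and 60.6 CPM (0.44) and Prtn3 at 283 and 202 CPM (-0.48). Mpo and Elane thus differed most below 40 early marker UMIs. Prtn3 differed at 20 to 40 (906 and 1355 CPM, 0.58) and hardly at 10 to 20 (2046 and 2125 CPM, 0.055), and Prss57 gave 0.36, 0.0023 and -1.66 from the lowest group to the highest. The Elane level of the most immature cells (44.8 and 60.6 CPM) stood somewhat above that of lymphoid cells with 1 hashtag (30.2 and 35.4 CPM). The part of free RNA in it was not tested.

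Serpinb1a showed the reverse order. It stood at 288 and 147 CPM in the cells with 10 to 20 early marker UMIs (log2 ratio -0.97), 246 and 101 CPM at 20 to 40 (-1.28), and 173 and 37.2 CPM at 40 or more (-2.21, interval -2.54 to -1.91). The difference was thus largest in the most immature cells. Basophil or mast cells held Serpinb1a at 152 and 151 CPM (0.00051) in sum, with ratios of 0.34 and -0.32 in the hashtags. Their median cells stood at 115 and 18.3 CPM and their upper 10% began at 342 and 899 CPM, so equal sums came from unlike cells. Serpinb1a stood lower in megakaryocyte or erythroid cells (45.0 and 17.5 CPM, -1.32), below the lymphoid level. That lymphoid level, in cells with 1 hashtag, was 61.0 and 19.3 CPM, a level that could hold free RNA, and its part in the ratios was not tested.

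**Figure D3:**
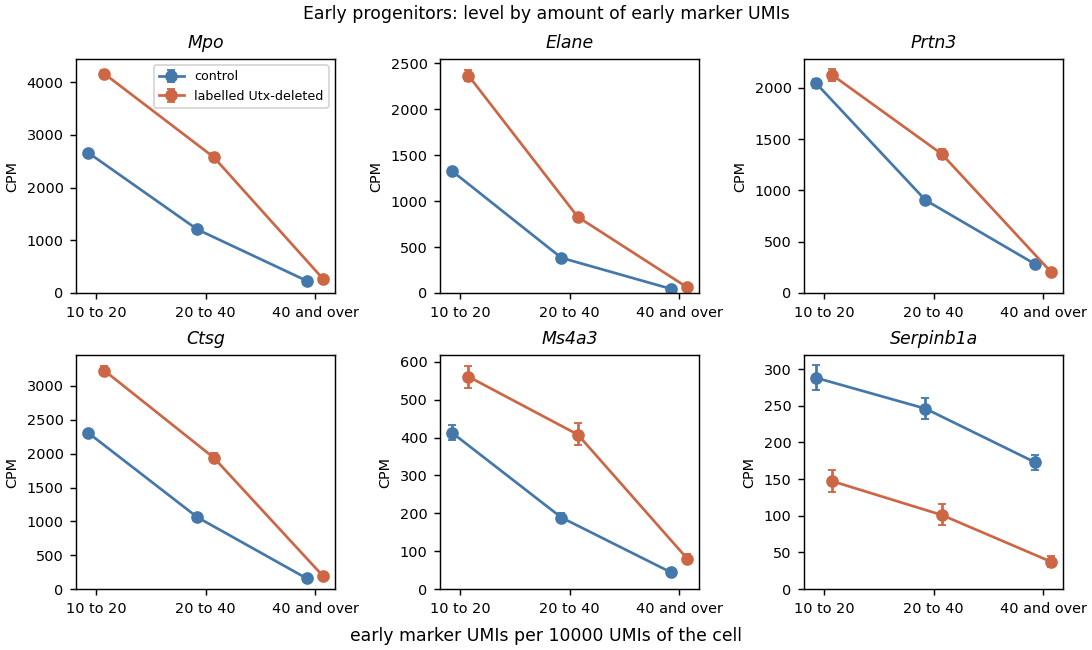
CPM of 6 genes in early progenitors grouped by their early marker UMIs per 10000 UMIs (10 to 20, 20 to 40, 40 and over) for the control library (blue) and the library labelled Utx-deleted (orange), with 95% Poisson intervals. Mpo lies higher in the library labelled Utx-deleted at 10 to 20 (2665 and 4160 CPM) and 20 to 40 and close at 40 and over (229 and 263 CPM), and Serpinb1a lies lower throughout.

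The early cells also differed between the libraries in Flt3, a marker of lymphoid-primed progenitors and itself 1 of the 10 early markers of the gate, which stood at 111 and 20.5 CPM and had at least 1 UMI in 324 of 635 and 42 of 249 cells. Without the cells that carried a Flt3 UMI, a comparison added after the data were seen, Mpo stood at 1267 and 2499 CPM (log2 ratio 0.98), Elane at 595 and 1256 CPM (1.08), Ctsg at 973 and 1867 CPM (0.94) and Serpinb1a at 188 and 98.1 CPM (-0.94). In the control library the cells with a Flt3 UMI held less Elane (395 CPM) and Ms4a3 (118 CPM) and more Serpinb1a (259 CPM) than those without. In the library labelled Utx-deleted the cells with a Flt3 UMI held less Serpinb1a (83.3 CPM) than those without. The part of these cells in the ratios was not tested. With clusters in place of marker gates, the early-stage ratios were 0.84 for Mpo, 0.89 for Elane and -0.7 for Serpinb1a, and 0 members were past 2-fold.

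In monocyte progenitors Mpo, Elane, Ctsg and Srgn were modestly higher in the library labelled Utx-deleted. Mpo stood at 3299 and 4220 CPM (log2 ratio 0.36, interval 0.34 to 0.38), Elane at 4668 and 6206 CPM (0.41, interval 0.39 to 0.43), Ctsg at 3423 and 4195 CPM (0.29, interval 0.27 to 0.31) and Srgn at 1082 and 1329 CPM (0.3, interval 0.26 to 0.33). Each of these was higher in both hashtags, which differed by a median of 0.0775 inside a library. Prtn3 (4392 and 4783 CPM, 0.12) and Ms4a3 (586 and 675 CPM, 0.2) were higher by less. Prss57 stood at 74.0 and 61.2 CPM (-0.28) and Ctsc at 111 and 89.7 CPM (-0.31), both lower. The Ctsc ratio was -0.037 and -0.47 in the hashtags and turned to 0.065 with each cell thinned. Serpinb1a stood at 309 and 181 CPM (-0.77, interval -0.85 to -0.7), with 317 and 303 CPM in the control hashtags against 178 and 181 CPM, which did not overlap. Of the members 0 were past 2-fold, where 2.23% of 9989 genes tested were.

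The spread among monocyte progenitors was wider in the control library at the low end. The lowest 10% of control cells had under 118 CPM of Elane and under 1007 CPM of Mpo, and in the library labelled Utx-deleted these bounds were 1369 and 2549 CPM. The upper 10% began at 9436 and 12158 CPM for Elane and at 4917 and 5863 CPM for Mpo. The share of a monocyte progenitor's UMIs taken by Mpo, Elane, Prtn3 and Ctsg had a median of 1.55% and 1.89%.

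In maturing neutrophils the pooled ratios were not stable. Mpo stood at 152 and 260 CPM (log2 ratio 0.77), Ctsg at 158 and 319 CPM (1.01, interval 0.98 to 1.04), Elane at 503 and 520 CPM (0.047) and Prtn3 at 367 and 403 CPM (0.13). Ctsg was the 1 member past 2-fold, where 4.85% of 11457 genes tested were. Monocyte progenitor markers summed to 38.5 and 99.6 CPM in this stage and dendritic markers to 6.11 and 9.45 CPM. Neutrophil progenitor markers summed to 1670 and 1387 CPM and early markers to 140 and 94.0 CPM. The sums of the B cell, T or NK, megakaryocyte or erythroid, basophil or mast and macrophage markers were lower too. The part of such cells in the ratios was not tested. Among hashtag 1 cells the ratios were 0.12 for Ctsg, -0.11 for Mpo, -1.21 for Elane and -1.03 for Prtn3, and among hashtag 2 cells 1.3, 1.08, 0.31 and 0.35. Without barcodes that carried both hashtags, 3.66% and 7.69% of the stage, Ctsg gave 0.85 and 0 members were past 2-fold. With clusters in place of gates, Ctsg gave -0.018 and Mpo -0.14. Cells early in maturation, 425 and 277 of the stage, held 69.1% and 81.3% of its Mpo UMIs and 60.5% and 80.2% of its Elane UMIs, so the stage was split by the share of a cell's UMIs that came from 9 specific-granule and later markers.

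Cells with 0.3 to 6% of their UMIs from these markers held more Mpo and Ctsg in the library labelled Utx-deleted. Mpo stood at 1515 and 2709 CPM over 425 and 277 cells (log2 ratio 0.84, interval 0.8 to 0.88) and Ctsg at 1536 and 3440 CPM (1.16, interval 1.12 to 1.2). Both were higher in each hashtag, by 0.75 and 1.07 for Mpo and by 1.11 and 1.44 for Ctsg. Elane (4380 and 5354 CPM, 0.29) and Prtn3 (3170 and 4047 CPM, 0.35) were higher in hashtag 2 (0.4 and 0.48) and lower in hashtag 1 (-0.24 and -0.16). Serpinb1a stood at 706 and 450 CPM (-0.65, interval -0.73 to -0.57) and was lower in each hashtag (-1.07 and -0.8). Barcodes with both hashtags were 6.82% and 21.3% of these cells. Without them Mpo gave 0.97, Ctsg 1.34 and Serpinb1a -0.9. Barcodes that hold a progenitor and a neutrophil with the same hashtag are not removed this way. Their part in the ratios was not tested.

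Between 6 and 9% the ratios turned with the cells used. Over all 997 and 711 cells Mpo stood at 89.9 and 189 CPM (log2 ratio 1.07) and Ctsg at 73.3 and 184 CPM (1.33). Without barcodes with both hashtags, which were 31 and 36 cells, Mpo stood at 91.6 and 85.4 CPM (-0.1) and Ctsg at 74.2 and 65.0 CPM (-0.19). Elane stood at 597 and 431 CPM over all cells (-0.47) and at 611 and 228 CPM without those barcodes (-1.42), and it was lower in both hashtags (-2.47 and -0.67). Ms4a3 stood at 162 and 87.2 CPM (-0.89) over all cells and was lower in both hashtags (-1.77 and -1.1). Ctsc had 2.62 and 8.88 CPM from 26 and 66 UMIs, and 2.46 and 8.11 CPM without those barcodes, but lymphoid cells make Ctsc (76.4 and 64.4 CPM) and give no free-RNA level for it, so no expression was read from these values.

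In the bulk of maturing neutrophils, with 9% or more, several of the granule transcripts that remained were lower in the library labelled Utx-deleted. Over 3858 and 4627 cells Elane stood at 133 and 71.2 CPM (log2 ratio -0.91, interval -0.96 to -0.85), Prtn3 at 121 and 68.4 CPM (-0.82), and Ms4a3 at 147 and 72.3 CPM (-1.02, interval -1.08 to -0.97). Srgn stood at 46 and 25.5 CPM (-0.85), but lymphoid cells make Srgn themselves (500 and 333 CPM) and give no free-RNA level for it, so its values are not read as expression. Prss57 stood at 25.2 and 17.2 CPM (-0.55). Each of these 5 was lower in both hashtags and without barcodes with both hashtags, Elane by 1.12 and 0.47 on the log2 scale in hashtags 1 and 2, and Ms4a3 by 1.14 and 1.01. Mpo (42.3 and 35.6 CPM) and Ctsg (51.6 and 38.5 CPM) were near the lymphoid levels of 37.2 and 35.4 CPM and 35.8 and 43.5 CPM, so no expression was read from them. Serpinb1a stood at 968 and 1068 CPM (0.14, interval 0.12 to 0.16). Markers of other cells were lower with the granule transcripts in these cells. The 10 early markers summed to 77.2 and 24.2 CPM, the 10 megakaryocyte or erythroid markers to 4.5 and 1.66, the 6 basophil or mast markers to 4.78 and 1.37, the 7 T or NK markers to 4.54 and 1.47, the 5 macrophage markers to 3.66 and 1.27 and the 8 B cell markers to 4.78 and 3.84 CPM, while the 4 dendritic markers gave 1.23 and 1.35 CPM. Their part in the lower levels was not tested.

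**Figure D4:**
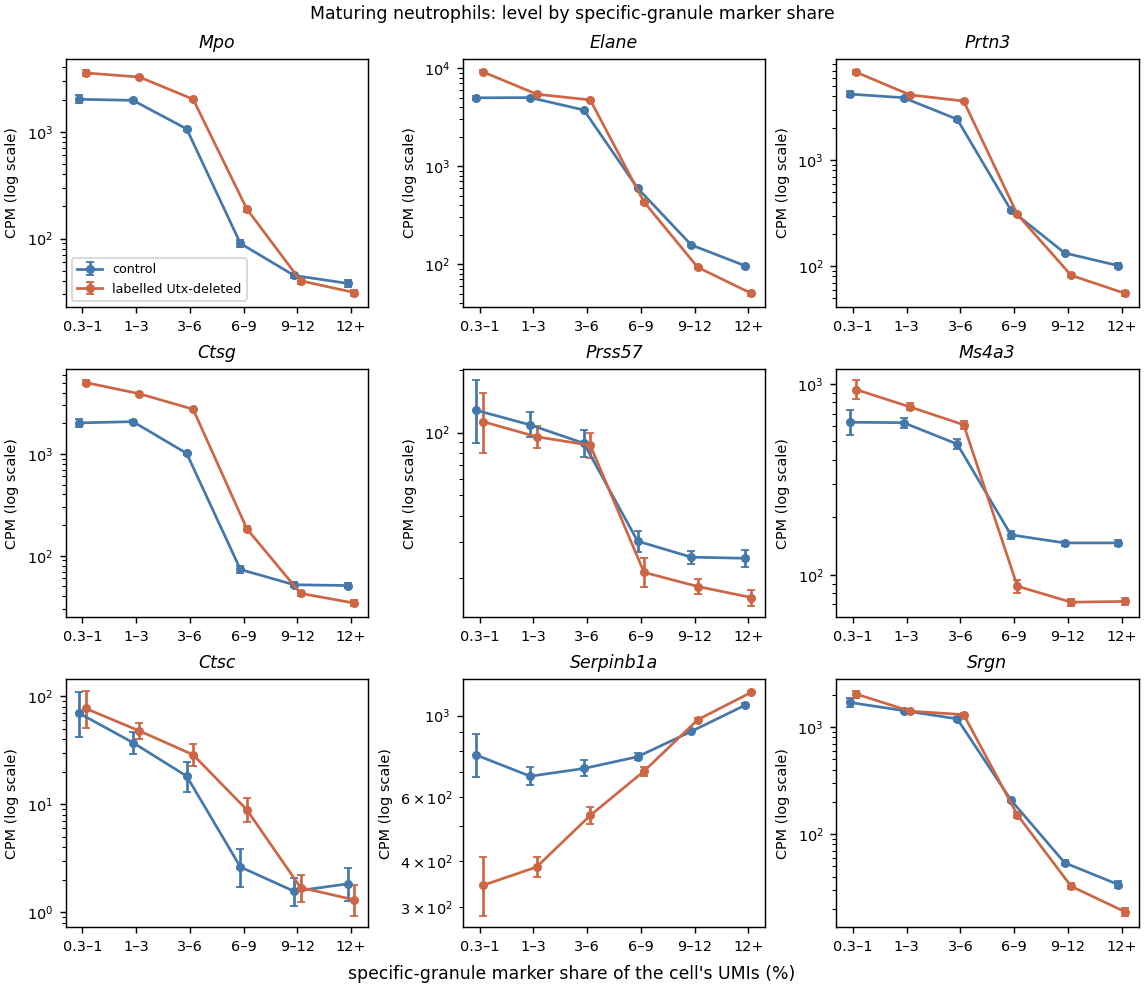
CPM of the 9 genes (log scale) in maturing neutrophils grouped by the percent of a cell's UMIs from specific-granule and later markers, control (blue) and library labelled Utx-deleted (orange), with 95% Poisson intervals. Over all cells, barcodes with both hashtags included, Mpo and Ctsg lie higher in the library labelled Utx-deleted up to 9% and slightly lower after it, Ms4a3 lies lower from 6% on, and Serpinb1a crosses from lower (780 and 344 CPM in the first group) to higher (1067 and 1158 CPM in the last).

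Along maturation, every member but Serpinb1a dropped between 3 to 6% and 6 to 9% marker share in both libraries. In the control library Mpo dropped from 1062 CPM at 3 to 6% to 89.9 CPM at 6 to 9%, and Ctsg from 1011 to 73.3 CPM. Elane dropped from 3750 to 597 CPM and to 157 CPM at 9 to 12%. Between the same 2 groups Prtn3 dropped from 2427 to 337 CPM, Srgn from 1193 to 208 CPM and Prss57 from 89.0 to 30.2 CPM. Ms4a3 dropped from 484 to 162 CPM and then stayed at 147 CPM in both later groups. Serpinb1a climbed from 683 CPM at 1 to 3% to 1067 CPM at 12% and over. In the library labelled Utx-deleted its climb was steeper, from 386 to 1158 CPM. With bins from Ltf, Camp and Ngp alone, control levels at 3 to 6% were 502 CPM for Mpo, 467 CPM for Ctsg and 1989 CPM for Elane. At 6 to 9% they were 62.9, 62.0 and 355 CPM. Serpinb1a in the first group (0.3 to 1%) stood at 404 and 314 CPM in these bins (log2 ratio -0.36).

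**Figure D5:**
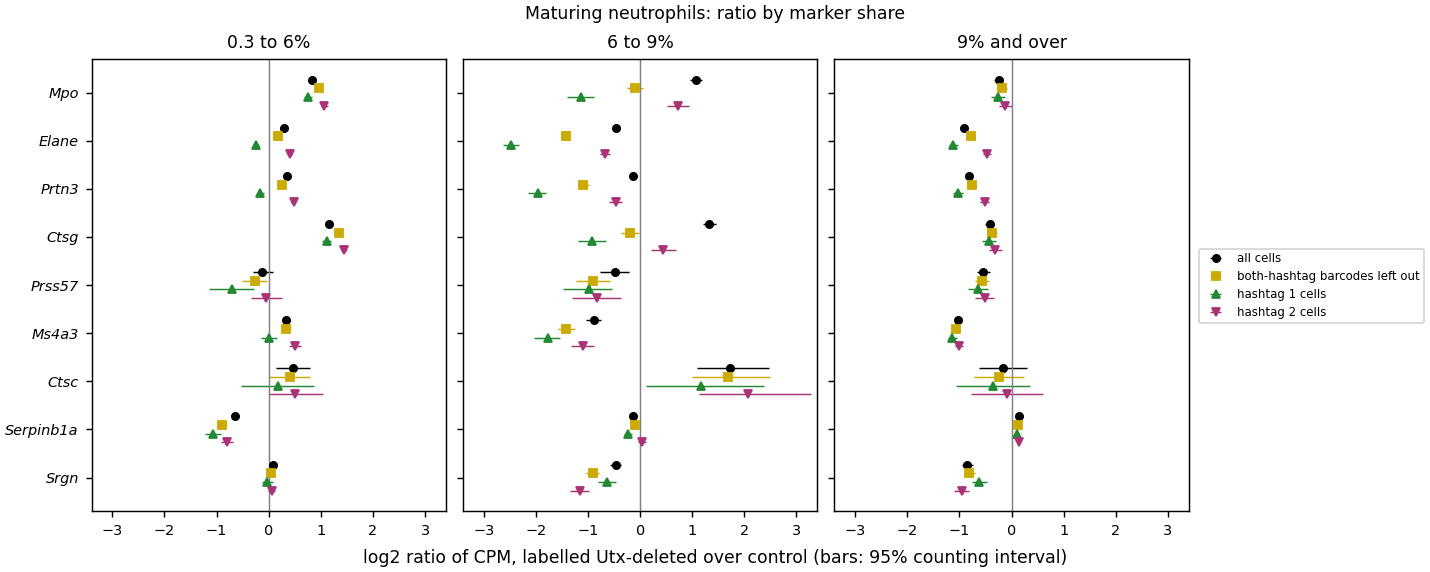
Log2 ratio of CPM, library labelled Utx-deleted over control, for the 9 genes in maturing neutrophils at 3 ranges of marker share, with all cells (black), without barcodes carrying both hashtags (yellow) and within each hashtag (green, purple); bars are 95% counting intervals. Ctsg lies above 0 in all 4 sets at 0.3 to 6% (1.16 over all cells), changes sign with the set at 6 to 9%, and lies below 0 at 9% and over.

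After thinning each cell to 2000 UMIs, which left out 153 and 69 maturing neutrophils, Ms4a3 was seen in 17.1% and 9.68% of them and Prtn3 in 19.1% and 11.7%, against 48.2% and 34.7% and 54.1% and 40.8% unthinned. Lymphoid cells gave 8.49% and 0% for Ms4a3 and 13.2% and 6.56% for Prtn3 after thinning. Mpo was seen in 10.9% and 9.5%, at or under the lymphoid 12.3% and 9.84%, so no expression was read from the share over the whole stage, although its entering cells held 1515 and 2709 CPM of Mpo.

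Lists of genes that serve the same granules were set beside the members. Past 2-fold were 4.1%, 2.06%, 2.23% and 4.85% of all genes tested in the 4 stages, shares at which lists of this size hold few or no such genes, so the low counts below say nothing particular about a list. Of 22 lysosomal granule enzymes tested, 0 were past 2-fold in any of the 4 stages. Their median log2 ratio in neutrophil progenitors was 0.015, with Arsa (0.42) and Cd68 (0.2) highest, and Cd63, a tetraspanin of azurophil granule membranes (733 and 416 CPM, -0.82), and Galns (-0.64) lowest. Of 13 protease inhibitors other than Serpinb1a, 5 to 8 were abundant enough to test in a stage and 0 were past 2-fold. In neutrophil progenitors Slpi, a secreted inhibitor of elastase, stood at 231 and 149 CPM (-0.63) and Cst7, an inhibitor of cysteine cathepsins, at 270 and 203 CPM (-0.41), while Cstb (0.26) and Serpinb6a (0.15) were higher.

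The ER folding genes, which handle newly made granule proteins, had a median log2 ratio of -0.35 in neutrophil progenitors, against -0.039 over all genes tested. All 12 were tested and 0 were past 2-fold, where 2.06% of all genes tested were. All 12 ratios were below 0, but the share of all genes below 0 was not counted. Values per hashtag are not given here for this list. Creld2 (108 and 66.3 CPM, -0.71) and the chaperone Hspa5 (1412 and 1053 CPM, -0.42) were lowest, and Canx (-0.13) and Ppib (-0.042) highest. In monocyte progenitors the median was -0.16, against -0.019 over all genes tested. It was 0.088 in early progenitors and 0.27 in maturing neutrophils.

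Haem is the cofactor of myeloperoxidase. Alas1, the first enzyme of haem synthesis, was the 1 gene of all 5 lists past 2-fold in any stage, where 4.1% of all genes tested in that stage were, at 56.4 and 151 CPM in early progenitors (log2 ratio 1.42, interval 1.29 to 1.55). It stood at 478 and 712 CPM in neutrophil progenitors (0.58) and 252 and 414 CPM in monocyte progenitors (0.71). In neutrophil progenitors Alad (-0.64) was lowest and Fech (-0.013) followed Alas1. The median over the 8 haem synthesis genes, all tested, was 0.067 in early progenitors, against -0.014 over all genes tested. In neutrophil progenitors it was -0.1 against -0.039. Of 10 transcription factors known to act on these genes or in these cells, 0 were past 2-fold in any stage, against 2.06% to 4.85% of all genes tested. In neutrophil progenitors Myc (0.32) and Etv6 (0.059) were highest, and Cebpb (196 and 152 CPM, -0.37) and Lmo2 (-0.21) lowest. Spi1, which encodes PU.1, stood at 237 and 227 CPM there, Myb at 652 and 671 CPM, and Cebpa at 108 and 99.5 CPM.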

How the data were processed

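As deposited, the values are raw UMI counts per gene or antibody tag and cell barcode, not normalized, made with Cell Ranger 7.1.0 on mm10 per the submitters' processing notes. The authors' cell calling and use of strand are not given in the sources used here. Cells with at least 500 genes and under 10% mitochondrial UMIs were kept, and the top 6% of Scrublet scores per library were left out, since its own threshold marked almost no cells. Members and lists were chosen with earlier results of these data known. Gates per 10000 UMIs (maturing 30, other lineages 10, monocyte 10, neutrophil progenitor 5, early 10) were set after the marker distributions were seen, without the members. A hashtag call needed 100 UMIs and 5 times the other hashtag, and 100 of each otherwise counted as both. UMIs were summed per stage and library. CPM is per 1000000 UMIs. Genes with 100 or more UMIs over both libraries entered counts past 2-fold. Floors are 3 counts.

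The named genes are all 9 members, from each other list the 2 highest and 2 lowest ratios in neutrophil progenitors at 100 or more UMIs, the 5 genes most alike in pattern, and chromosomal neighbours; 1 gene that this rule names is not reported here. Flt3, Spi1, Myb and Cebpa were added after their values were seen. Python 3.11.15, scanpy 1.11.5, scipy 1.17.1, leidenalg 0.10.2 and, for TMM factors, edgeR 4.0.16 in R 4.3.3 were used. GENCODE M21 (GRCm38) held 99.6% of the gene IDs. On simulated counts for neutrophil progenitors (9943 genes), 200 of 200 genes changed 4-fold were recovered and 0 of 9743 unchanged genes passed 2-fold. For early progenitors 2 of 10282 unchanged genes passed, for monocyte progenitors 0 of 9787 and for maturing neutrophils 1 of 11251. These counts were Poisson draws without spread between cells, hashtags or libraries. They check the calculation and do not measure error in the real data. Alternatives were a stricter filter (1000 genes, 5%), no doublet removal, no barcodes with both hashtags, halved and doubled gates, clusters, TMM, a total without abundant genes, thinning to 2000 UMIs, each hashtag, 0.1 or 5 UMIs added, antibody-tag gates, bins from Ltf, Camp and Ngp alone, UMI minimums of 20 and 500, and a 1.5-fold threshold. Added after the data were seen were the early stage without Flt3 cells, equal weights of bins, and maturation groups per hashtag or without barcodes with both.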

Additional observations from a re-analysis of the deposited data

Results flagged for a closer look

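Serpinb1a went in opposite directions in 2 stages: it was lower in early progenitors of the library labelled Utx-deleted (log2 ratio -1.24) and slightly higher in maturing neutrophils (0.097), with the same signs in both hashtags. Ms4a3 was higher in early progenitors (0.91) and lower in maturing neutrophils (-0.53), again in both hashtags. Neither difference between stages was tested, since each group is 1 library. Equal weights for the groups of maturing cells, an alternative added after the data were seen, turned both maturing ratios (Serpinb1a -0.26, Ms4a3 0.21).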

How the results depend on the processing

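No paired analysis was possible because each group is 1 library. In neutrophil and monocyte progenitors 0 members were past 2-fold under every alternative run. In early progenitors, Mpo, Elane, Prtn3, Ctsg, Ms4a3 and Serpinb1a kept their sign under all 15 alternatives (Mpo 0.77 to 1.13, Elane 0.89 to 1.43, Serpinb1a -1.63 to -0.7). The count of 3 members past 2-fold there became 0 with clusters as stages, 1 without Flt3 cells and 1 with equal weights of bins, 2 with no doublet removal, doubled thresholds or hashtag 2 only (where Mpo gave 0.99, 0.95 and 0.96), and 4 with thinning or hashtag 1 only. In maturing neutrophils the count of 1 became 0 under the stricter cell filter, no doublet removal, no barcodes with both hashtags, halved thresholds, clusters and thinning, 3 with hashtag 1 only and 2 with hashtag 2 only. Ctsg in that stage turned to -0.018 with clusters. At 6 to 9% marker share, Mpo turned to -0.1 and Ctsg to -0.19 without barcodes with both hashtags, and to -1.14 and -0.92 with hashtag 1 only. The causes were not tested.

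Genes past 2-fold at a UMI minimum of 20, a minimum of 500 and a 1.5-fold threshold numbered 973, 92 and 1030 in early progenitors, 619, 49 and 661 in neutrophil progenitors, 678, 60 and 663 in monocyte progenitors, and 1199, 256 and 1316 in maturing neutrophils. Depth limits Ctsc and Prss57 most, with 232 to 1452 and 235 to 3806 UMIs per stage.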
